A study of Mus musculus with 12 samples.

Results

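Mitochondrial ribosomal protein genes were taken as all genes whose symbol is Mrps or Mrpl followed by a number. The rule found 77 genes among 23983 entries, and all 77 were tested by the authors in both tissues. By symbol, 29 were named for the small subunit (Mrps) and 48 for the large subunit (Mrpl). RNA was sequenced from the cortex and the subcortex of newborn mice at postnatal day 0 (P0), all of mixed strain. The 4 groups of 3 libraries each were vKO cortex, WT cortex, vKO subcortex and WT subcortex. In vKO mice, with the genotype Reck flex2/Δex1; Tie2Cre, the Cre recombinase was driven by Tie2 sequences, which are active in endothelial cells and also in blood lineages, and WT mice were the controls for loss of the gene Reck. Each deposited table holds 1 FPKM value (the fragment count of a gene scaled by transcript length and library size) per gene and group, with the authors' own p-value and q-value, so no spread between the 3 libraries of a group can be given. The tables mark the groups by letters only, W read here as WT and M as vKO, and every direction below rests on that reading.

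The mitochondrial ribosome translates the messages that the mitochondrial genome encodes, all of which are for core subunits of the respiratory chain and of ATP synthase. Its RNA components come from the mitochondrial genome, whereas its proteins are encoded in the nucleus, made in the cytosol and imported. Some of these proteins have counterparts in the bacterial ribosome (unified names that start with u or b), and others exist only in mitochondrial ribosomes (names that start with m). Of the 77 genes, 46 encode a protein with a bacterial counterpart and 30 a mitochondria-specific one. A few symbols do not match the place of the protein: Mrps30 (mL65) and Mrps18a (mL66) lie in the large subunit, and Mrps36 belongs to the α-ketoglutarate dehydrogenase complex and not to the mitochondrial ribosome. By structure, 26 genes belonged to the small subunit and 50 to the large subunit. The genes lay on 17 chromosomes, with 10 on chromosome 11 and 8 on chromosome 17.

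The tissue labels were checked on marker genes. The cortex marker Neurod6 had 168 FPKM in vKO cortex and 98.3 FPKM in WT cortex, where it rose, against 6.08 FPKM in vKO subcortex and 6.61 FPKM in WT subcortex. Summed FPKM of the 4 subcortex markers tested in subcortex (Six3 was not) was 72.18 in vKO subcortex and 76.33 in WT subcortex. For the 4 tested in cortex (Gbx2 was not) it was 11.45 in vKO cortex and 19.13 in WT cortex, where 2 of 4 fell. The sums thus cover different genes. Singly, Tcf7l2, Lhx9 and Gbx2 were higher in subcortex in both genotypes. Isl1 was higher in cortex, with 7.32 FPKM in vKO cortex and 9.53 FPKM in WT cortex. In subcortex Isl1 had 5.73 FPKM in vKO and 4.87 FPKM in WT. Six3, at low levels, was higher in subcortex in vKO and higher in cortex in WT. Reck itself had 3.23 FPKM in vKO cortex and 2.91 FPKM in WT cortex, and 3.49 FPKM in vKO subcortex and 2.37 FPKM in WT subcortex (q = 0.639 and q = 0.333 in the authors' deposited table). A whole-gene value from whole tissue does not check a deletion made in vascular cells. Xist, which is transcribed from the inactive X chromosome, had 18.6 FPKM in vKO cortex and 0.0417 FPKM in WT cortex, and 10.2 FPKM in vKO subcortex and 0.0369 FPKM in WT subcortex. The sex make-up of the libraries and the genotype therefore cannot be told apart in any comparison that follows. The tables give no sequencing depth.

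In cortex, many mitochondrial ribosomal protein genes had higher transcript levels in vKO than in WT. Of the 77 genes, 22 (28.6%) rose at a q under 0.05 in the authors' deposited table and 0 fell. Over all 13594 genes tested in cortex, 8.15% were called higher and 11.3% were called lower by the same rule. At an unadjusted p under 0.05 in the authors' deposited table, 44 of the 77 genes (57.1%) were higher and 0 lower, against 15.1% and 17.1% of all tested genes. Beyond the called genes, 13 more had a higher level in vKO cortex with a q between 0.05 and 0.1 in the authors' deposited table. In bulk tissue, a different number of cells of a type and a different amount of RNA per cell cannot be told apart.

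The difference was small per gene and had the same sign in almost the whole set. The ratio given here is log2 of vKO over WT after adding 1 FPKM to each value, which understates the change of low genes. In cortex it was above 0 for 74 of the 77 genes. Its median was 0.36 over the 77 genes, with quartiles at 0.26 and 0.44, against a median of 0.00 over all tested genes, with quartiles at -0.23 and 0.22. Summed over the 77 genes, FPKM was 2454.3 in vKO cortex and 1859.2 in WT cortex, a ratio of 1.32, whereas the sum over all tested genes gave 1.17. The median gene had 24.5 FPKM in vKO cortex and 18.2 FPKM in WT cortex. Of the 22 called genes, 6 reached a 1.5-fold ratio of plain FPKM values: Mrps33, Mrps28, Mrpl54, Mrpl12, Mrps10 and Mrpl2.

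**Figure D1:**
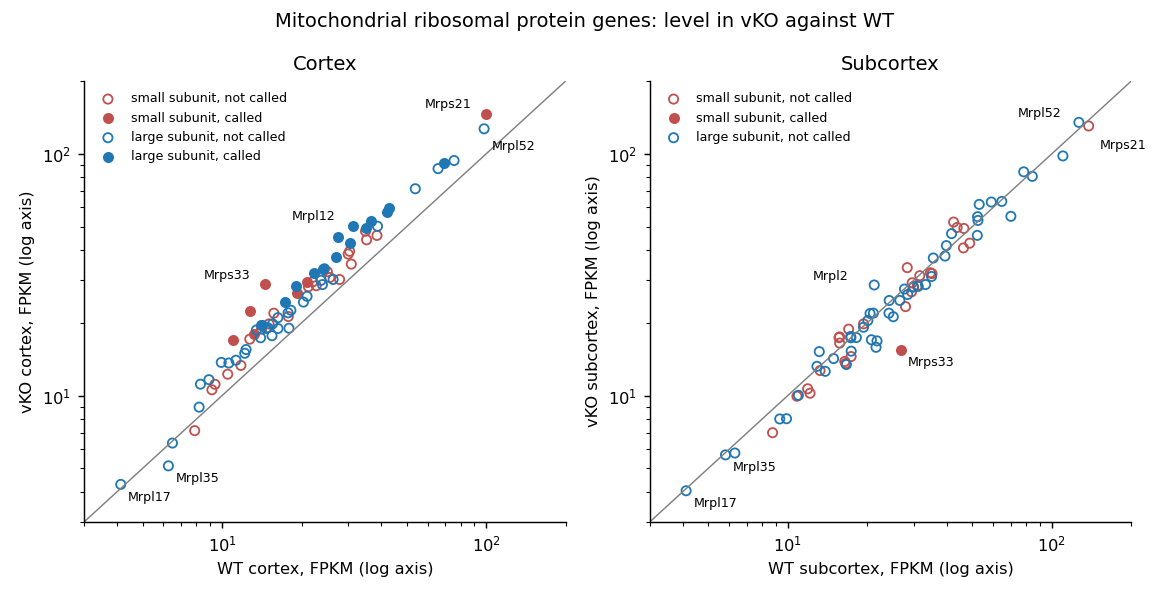
FPKM of each of the 77 mitochondrial ribosomal protein genes in vKO (vertical, log axis) against WT (horizontal, log axis), in cortex (left) and subcortex (right). Each circle is 1 gene, coloured by subunit as named in the symbol and filled where q is under 0.05 in the authors' deposited table, and the line marks equal levels. In cortex, 74 of 77 genes lie above the line and 22 are filled, whereas in subcortex 27 lie above it and the only filled gene is Mrps33, below it.

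Among genes named Mrps, 7 of 29 rose in vKO cortex (24.1%), and 28 of 29 had a ratio above 0. By structure, 6 of 26 small-subunit genes rose and 25 of 26 had a ratio above 0. Mrps33, which encodes the mitochondria-specific protein mS33, had 28.9 FPKM in vKO cortex and 14.5 FPKM in WT cortex. Its log2 ratio of 0.95 (q = 0.000806 in the authors' deposited table) was the highest of all 77 genes. The gene lies at chr6:39801804-39810988 on the minus strand (GRCm38, GENCODE M21) and has 3 exons in that annotation. Mrps28 (bS1m), with a counterpart in the bacterial ribosome, had 22.5 FPKM in vKO cortex and 12.8 FPKM in WT cortex, a log2 ratio of 0.77 (q = 0.00306 in the authors' deposited table). Mrps10 (uS10m) had 17.05 FPKM in vKO cortex and 11.02 FPKM in WT cortex, a log2 ratio of 0.59 (q = 0.0135 in the authors' deposited table). Mrps21 (bS21m) had the highest level of all 77 genes in both groups of cortex and still differed, with 146 FPKM in vKO cortex and 99.9 FPKM in WT cortex, a log2 ratio of 0.55 (q = 0.0111 in the authors' deposited table). Levels of the called genes in WT cortex thus ran from 11.02 FPKM (Mrps10) to 99.9 FPKM (Mrps21). Over the 77 genes, Spearman's rho between the cortex ratio and the WT cortex level was 0.329, as a description.

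The other Mrps genes called in cortex encode mitochondria-specific proteins. Mrps34 (mS34), which is needed for a stable small subunit, had 29.5 FPKM in vKO cortex and 21.01 FPKM in WT cortex, a log2 ratio of 0.47. Mrps22 (mS22), in which human mutations impair the respiratory chain, had 26.6 FPKM in vKO cortex and 19.1 FPKM in WT cortex, a log2 ratio of 0.45. Mrps30, named for the small subunit but placed in the large subunit as mL65, had 18.1 FPKM in vKO cortex and 13.3 FPKM in WT cortex, a log2 ratio of 0.42. Their q-values in the authors' deposited table were 0.0300, 0.0377 and 0.0463 in that order, so all 3 lay near the threshold. Mrps7 (uS7m) lay just outside it, with 29.5 FPKM in vKO cortex and 22.03 FPKM in WT cortex (log2 ratio 0.41, q = 0.0514 in the authors' deposited table).

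Other Mrps genes were not called in cortex, with levels in vKO and WT that ranged from close to equal to clearly different. Mrps12 (uS12m), whose bacterial counterpart lines the decoding centre, had 30.2 FPKM in vKO cortex and 27.9 FPKM in WT cortex (log2 ratio 0.11, q = 0.721 in the authors' deposited table). Mrps25 (mS25) was the only Mrps gene with a ratio below 0, at 7.17 FPKM in vKO cortex and 7.88 FPKM in WT cortex. The 3 genes of the Mrps18 family, which arose by duplication and sit at different places of the ribosome, all lay above 0 without passing the test. Mrps18a (mL66) had 44.1 FPKM in vKO cortex and 35.3 FPKM in WT cortex, Mrps18b (mS40) had 17.1 FPKM in vKO cortex and 12.7 FPKM in WT cortex, and Mrps18c (bS18m) had 46.0 FPKM in vKO cortex and 38.6 FPKM in WT cortex. Mrps36, which is not a ribosomal protein, had 21.9 FPKM in vKO cortex and 15.7 FPKM in WT cortex (log2 ratio 0.46, q = 0.0796 in the authors' deposited table), a ratio within the range of the true subunits.

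Among genes named Mrpl, 15 of 48 rose in vKO cortex (31.2%), and 46 of 48 had a ratio above 0. Mrpl54 (mL54), a mitochondria-specific protein, had 45.5 FPKM in vKO cortex and 27.5 FPKM in WT cortex, a log2 ratio of 0.71 (q = 0.00144 in the authors' deposited table). Mrpl12 (bL12m), the counterpart of the bacterial stalk protein that recruits translation factors and a protein also known to bind the mitochondrial RNA polymerase, had 50.5 FPKM in vKO cortex and 31.4 FPKM in WT cortex. Its log2 ratio was 0.67 (q = 0.000806 in the authors' deposited table). These were the highest ratios of the large subunit. Mrpl2 (uL2m), whose bacterial counterpart lies next to the peptidyl transferase centre, had 28.5 FPKM in vKO cortex and 19.0 FPKM in WT cortex, a log2 ratio of 0.56 (q = 0.00691 in the authors' deposited table). Mrpl18 (uL18m), a protein of the central protuberance, had 52.7 FPKM in vKO cortex and 36.7 FPKM in WT cortex, a log2 ratio of 0.51 (q = 0.0113 in the authors' deposited table).

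Other large-subunit genes that rose encode proteins from several regions of the subunit. Mrpl11 (uL11m), at the base of the stalk, had 19.6 FPKM in vKO cortex and 14.1 FPKM in WT cortex, a log2 ratio of 0.45 (q = 0.0156 in the authors' deposited table). Mrpl27 (bL27m), whose bacterial counterpart reaches the peptidyl transferase centre, had 32.1 FPKM in vKO cortex and 22.4 FPKM in WT cortex, a log2 ratio of 0.50 (q = 0.0303 in the authors' deposited table). Mrpl32 (bL32m), a known substrate of the mitochondrial m-AAA protease, had 33.4 FPKM in vKO cortex and 24.1 FPKM in WT cortex, a log2 ratio of 0.45 (q = 0.0472 in the authors' deposited table). The last called gene by ratio was Mrpl30 (uL30m), at 91.6 FPKM in vKO cortex and 69.0 FPKM in WT cortex, a log2 ratio of 0.40 (q = 0.0486 in the authors' deposited table). The remaining called genes had log2 ratios between 0.44 and 0.48. With bacterial counterparts, Mrpl28 had 49.4 FPKM in vKO cortex and 35.1 FPKM in WT cortex, Mrpl13 had 42.8 FPKM in vKO cortex and 30.6 FPKM in WT cortex, Mrpl34 had 59.5 FPKM in vKO cortex and 42.8 FPKM in WT cortex, and Mrpl16 had 19.6 FPKM in vKO cortex and 14.2 FPKM in WT cortex. Of the mitochondria-specific proteins, Mrpl40 had 24.5 FPKM in vKO cortex and 17.3 FPKM in WT cortex, Mrpl43 had 37.4 FPKM in vKO cortex and 27.1 FPKM in WT cortex, and Mrpl42 had 57.4 FPKM in vKO cortex and 42.2 FPKM in WT cortex. Mrpl41, which is also known to bind Bcl-2, had a ratio of the same size without a call, at 13.7 FPKM in vKO cortex and 9.94 FPKM in WT cortex (log2 ratio 0.43, q = 0.104 in the authors' deposited table).

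The 2 large-subunit genes below 0 in cortex were expressed at low levels. Mrpl35 (bL35m) had 5.13 FPKM in vKO cortex and 6.27 FPKM in WT cortex, a log2 ratio of -0.25 (q = 0.236 in the authors' deposited table). Mrpl19 (bL19m) had 6.37 FPKM in vKO cortex and 6.49 FPKM in WT cortex. Mrpl17 (bL17m), the lowest of all 77 genes, had 4.30 FPKM in vKO cortex and 4.14 FPKM in WT cortex, a log2 ratio of 0.04.

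**Figure D2:**
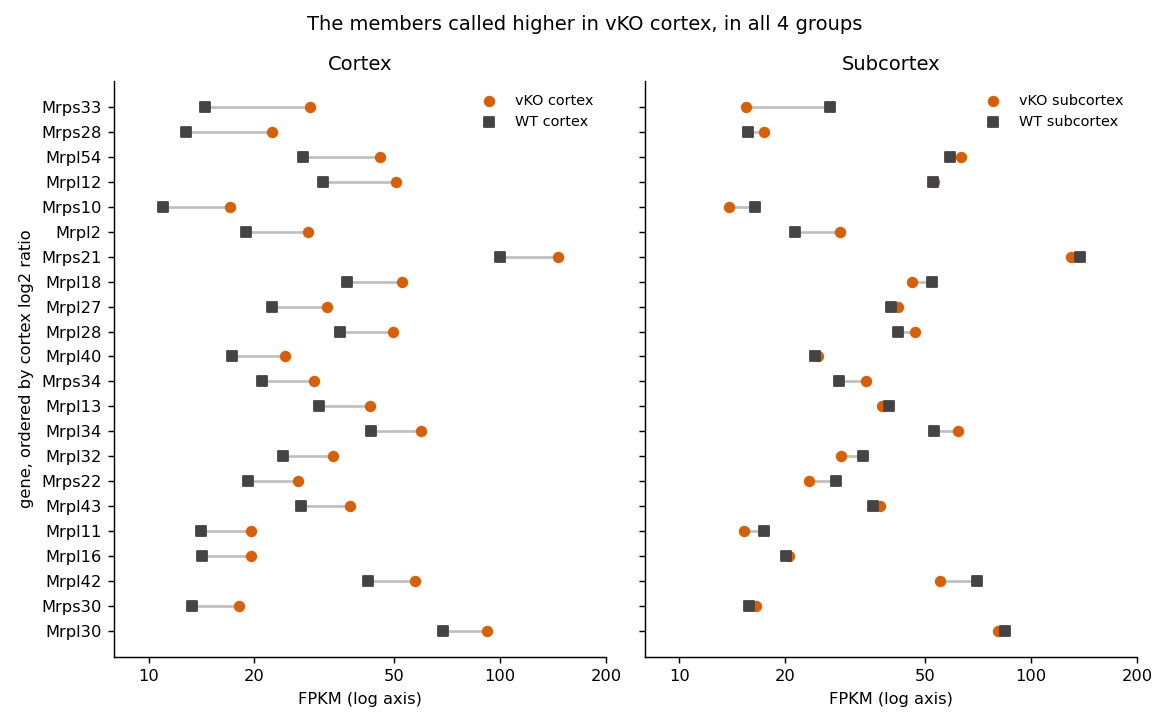
FPKM (log axis) of the 22 genes called higher in vKO cortex, in vKO (orange circles) and WT (black squares), in cortex (left) and in subcortex (right), ordered by the cortex ratio. All 22 have the circle to the right in cortex, where the call was made, whereas in subcortex Mrps33 has the circle far to the left, at 15.5 FPKM in vKO and 26.8 FPKM in WT.

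Genes named for the small and for the large subunit were set side by side, with no test over genes. The median log2 ratio in cortex was 0.37 for the small and 0.35 for the large subunit by symbol, a difference of 0.018. The summed FPKM of the small subunit was 873.2 in vKO cortex and 660.5 in WT cortex, a ratio of 1.32, and that of the large subunit was 1581.1 in vKO cortex and 1198.7 in WT cortex, a ratio of 1.32. Grouped by structure instead of symbol, 6 of 26 small-subunit genes and 16 of 50 large-subunit genes rose, and the medians differed by 0.017. Of the genes for mitochondria-specific proteins 8 of 30 rose, and of those with a bacterial counterpart 14 of 46, with medians of 0.35 and 0.37. The sign of the small-against-large difference was not stable: it was -0.005 after removing the length trend described next and -0.034 without genes that overlap another gene or have a near-identical copy.

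**Figure D3:**
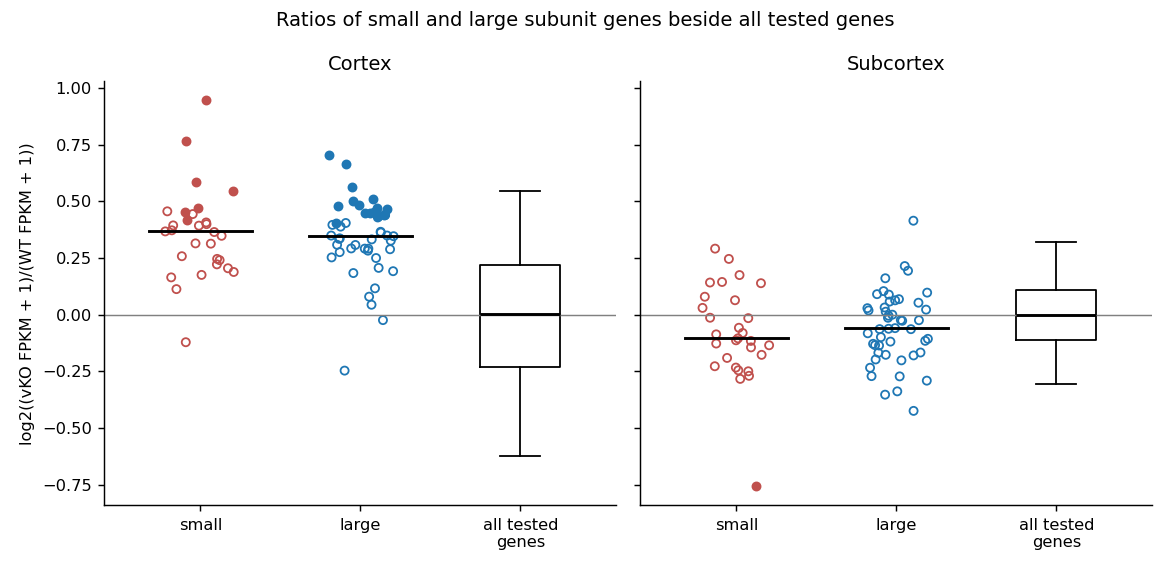
Log2 ratio of vKO over WT (vertical axis) for each gene, by subunit as named in the symbol, in cortex and in subcortex; bars mark medians, filled points have q under 0.05 in the authors' deposited table, and the box gives the quartiles of all tested genes with whiskers at the 5th and 95th percentile. The small and large subunits have medians of 0.37 and 0.35 in cortex and of -0.10 and -0.06 in subcortex, and their points overlap widely in each tissue.

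Transcript length moved with the cortex ratio in the whole table. Across 13446 tested genes with an annotated length, Spearman's rho between ratio and length was -0.551 in cortex, whereas over 13594 genes in subcortex it was 0.021. Among the 77 members rho was -0.477 in cortex and -0.193 in subcortex, a description over genes that share the same libraries. Mitochondrial ribosomal protein genes are short, with a median transcript of 1316 bases against 3179 bases over all tested genes. In cortex, the 26 shortest members (463 to 1056 bases) had a median ratio of 0.39, the 25 in the middle (1068 to 1764 bases) 0.40 and the 26 longest (1849 to 7300 bases) 0.27.

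After the median ratio of genes of similar length was subtracted, the members' median in cortex was 0.11, and 61 of 77 genes (79.2%) were above 0, against 50% of all tested genes. Length was that of the longest coding transcript in GENCODE M21. For some members it exceeds the whole locus given with the deposited FPKM values, such as Mrps26 (4278 bases, chr2:130563757-130565394) and Mrpl32 (3013 bases, chr13:14610301-14613037). The length bin of such members may therefore be wrong. All 22 called genes were still above 0, but they were called on the same cortex values, with the lowest ratio at 0.40. Their sign after this step is therefore no separate support. Mrps33 kept 0.60, Mrpl12 0.39, Mrps28 0.38 and Mrpl54 0.32, whereas Mrpl42 was left with 0.05. Of the genes below 0 before this step, Mrpl19 and Mrps25 were each at 0.11 after it, and Mrpl35 stayed below 0, at -0.21. Compared with genes of like length, members were also called more often: of 39 members with transcripts of 918 to 2572 bases, 13 (33.3%) were called higher, against 609 of 4207 other genes in that range (14.5%). Their median ratios were 0.39 for the members and 0.19 for the others.

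**Figure D4:**
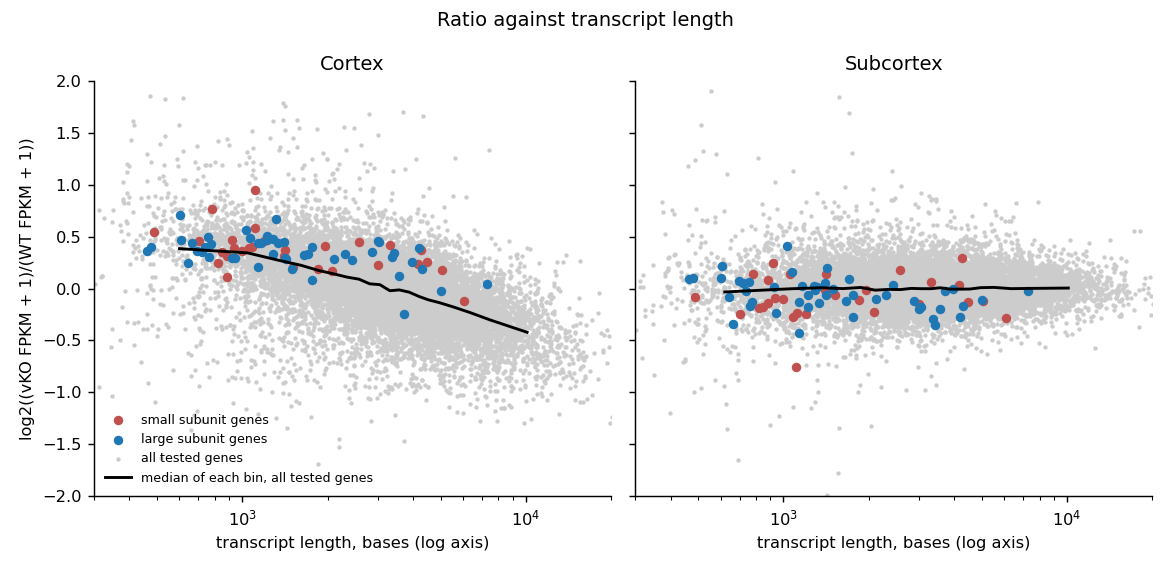
Log2 ratio of vKO over WT (vertical axis) against transcript length in bases (horizontal, log axis), in cortex (left) and subcortex (right), for the members (red small subunit, blue large subunit) over all tested genes (grey) and their median in 20 length bins (line); genes outside the axes are not drawn (190 in cortex, 148 in subcortex). In cortex the line falls with length and 61 of 77 members exceed the median of their bin, whereas in subcortex the line is flat and 29 of 77 do.

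Gene models limit what can be assigned to a single gene. The exons of 32 members overlap those of another gene, 27 of them on the opposite strand, and no source used here says whether the authors' estimates used strand. Of the 22 called genes, 7 are affected: Mrps30, Mrpl43, Mrpl13, Mrps34, Mrpl27, Mrpl18 and Mrpl12. Mrpl22 and Mrpl53 each have a near-identical copy elsewhere in the transcripts, and neither was called. Among the 44 members with neither limit, 15 rose in vKO cortex and the median ratio was 0.37.

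In subcortex, the members lay close to equal in vKO and WT. Of the 77 genes, 0 rose and 1 fell in vKO subcortex at a q under 0.05 in the authors' deposited table, where 0.451% of the 13735 tested genes were called higher and 0.262% lower. The ratio was above 0 for 27 genes and below 0 for 50, with a median of -0.06 and quartiles at -0.18 and 0.05, against a median of -0.001 over all tested genes. Summed FPKM was 2390.0 in vKO subcortex and 2461.7 in WT subcortex, a ratio of 0.971. At an unadjusted p under 0.05 in the authors' deposited table, 1 gene (1.3%) was higher and 3 (3.9%) were lower, against 3.49% and 2.82% of all tested genes. The medians of the small and the large subunit were -0.10 and -0.06 by symbol, a difference of -0.044, also not tested.

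The gene that fell in subcortex was Mrps33, the one with the highest ratio in cortex. It had 15.5 FPKM in vKO subcortex and 26.8 FPKM in WT subcortex, a log2 ratio of -0.76 (q = 0.0104 in the authors' deposited table). Across the 4 groups its level was thus high in vKO cortex and WT subcortex and low in vKO subcortex and WT cortex. The difference between the tissues was not tested, since the tables were normalized separately and hold no value per library.

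The other genes past an unadjusted p of 0.05 in subcortex were Mrpl2, Mrpl21 and Mrpl51. Mrpl2 had 28.7 FPKM in vKO subcortex and 21.3 FPKM in WT subcortex (log2 ratio 0.42, q = 0.562 in the authors' deposited table), and it was also called higher in cortex. Mrpl21 (bL21m) had 15.8 FPKM in vKO subcortex and 21.6 FPKM in WT subcortex, with q = 0.571 in the authors' deposited table. Mrpl51 (mL51) had 16.8 FPKM in vKO subcortex and 21.8 FPKM in WT subcortex, with q = 0.714 in the authors' deposited table. None of the 3 passed the adjusted threshold. Among genes with a high subcortex ratio, Mrps26 (mS26) had 52.2 FPKM in vKO subcortex and 42.5 FPKM in WT subcortex, Mrps34 had 33.8 FPKM in vKO subcortex and 28.4 FPKM in WT subcortex, and Mrpl34 had 61.8 FPKM in vKO subcortex and 53.1 FPKM in WT subcortex. At the other end, Mrpl42, called higher in cortex, had 55.2 FPKM in vKO subcortex and 70.0 FPKM in WT subcortex, a log2 ratio of -0.34 without a call.

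Taken gene by gene, 27 members had a ratio above 0 in both tissues, 47 were above 0 in cortex and below 0 in subcortex, and 3 were below 0 in both. The rank order of the ratios in cortex and subcortex had a Spearman's rho of 0.237 over the 77 genes. Genes with a high cortex ratio were thus spread over the whole range in subcortex.

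**Figure D5:**
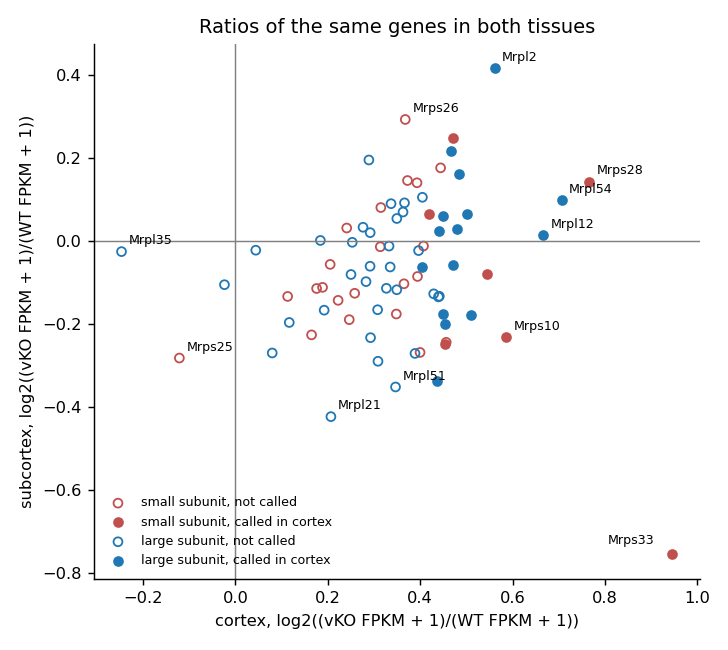
Log2 ratio of vKO over WT in subcortex (vertical axis) against cortex (horizontal axis) for the 77 genes, coloured by subunit, with genes called in cortex filled. Most points lie right of 0 in cortex and on both sides of 0 in subcortex, and Mrps33, called in both tissues, stands apart at 0.95 in cortex and -0.76 in subcortex.

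The levels of the 77 genes kept nearly the same order in every group. Spearman's rho was 0.979 between vKO and WT cortex, 0.972 between vKO and WT subcortex, 0.966 between vKO cortex and vKO subcortex and 0.972 between WT cortex and WT subcortex, as a description across genes. By the mean of vKO and WT, the highest levels in each tissue belonged to Mrps21, Mrpl52, Mrpl20 and Mrpl30, although in vKO subcortex Mrpl33 (84.2 FPKM) lay above Mrpl30 (80.7 FPKM). Mrpl52 (mL52) had 127 FPKM in vKO cortex and 98.2 FPKM in WT cortex, and 135 FPKM in vKO subcortex and 127 FPKM in WT subcortex. Mrpl20 (bL20m) had 93.8 FPKM in vKO cortex and 75.6 FPKM in WT cortex, and 98.0 FPKM in vKO subcortex and 110 FPKM in WT subcortex. The lowest level in every group was that of Mrpl17, with 4.04 FPKM in vKO subcortex and 4.13 FPKM in WT subcortex beside its cortex values. Messages for proteins of the same ribosome thus differed widely in FPKM, and 67 of the 77 genes reached at least 10 FPKM in all 4 groups. Whether neighbours in this order differ beyond their spread cannot be given without values per library.

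Set side by side, WT cortex was the group with the lowest level for most members. WT cortex was lowest of the 4 groups for 64 of 77 genes (83.1%), against 32% of 13169 genes tested in both tissues and 54.2% of 4060 other genes with transcripts of 918 to 2572 bases. vKO subcortex was lowest for 11 genes, vKO cortex for 1 and WT subcortex for 1. The median log2 ratio of cortex over subcortex was 0.06 in vKO and -0.36 in WT over the 77 genes, against -0.02 in vKO and -0.05 in WT over all genes tested in both tissues. In vKO, 29 of 77 genes were lower in cortex than in subcortex, whereas in WT 72 of 77 were lower, among them all 29 Mrps genes. These levels come from tables that were normalized separately, and no test was made across them.

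Markers of other cell types moved between the groups in cortex as well. Over all tested genes, 8.15% were called higher and 11.3% lower in cortex, against 0.451% and 0.262% in subcortex. A list of 3 genes without a call in subcortex is therefore no contrast between the tissues. The 3 microglial markers all rose in vKO cortex, with a summed level of 51.4 FPKM in vKO and 17.2 FPKM in WT. In subcortex 0 of 3 were called (36.3 FPKM in vKO and 32.4 FPKM in WT). Of 3 cell cycle markers, 2 rose in cortex, with a sum of 45.3 FPKM in vKO and 33.7 FPKM in WT, and 0 were called in subcortex. The erythroid gene Alas2 rose in cortex, at 34.6 FPKM in vKO and 5.70 FPKM in WT, while the other erythroid markers were under 1 FPKM and were not tested. Of 3 endothelial markers, 1 (Cldn5) fell in vKO cortex and 2 (Pecam1 and Cdh5) rose in vKO subcortex. None of these markers was at 0 in any group, and their part in the result for mitochondrial ribosomal protein genes was not tested.

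Promoter sequences were available from RefSeq (GRCm38.p6) for 68 of the 77 genes, as 250 bases before and 50 after the start of the gene. The promoters shown are those of the genes with the highest cortex ratios that had an entry there, the gene with the highest subcortex ratio, and Mrps11. In GENCODE M21 the 5′ end of Mrps11 overlaps that of another member, Mrpl46. Each line gives the first 280 bases, 5′ to 3′ on the strand of the gene, with motif matches in capitals.

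Mrps33 (chr6:39810907-39811186, minus strand): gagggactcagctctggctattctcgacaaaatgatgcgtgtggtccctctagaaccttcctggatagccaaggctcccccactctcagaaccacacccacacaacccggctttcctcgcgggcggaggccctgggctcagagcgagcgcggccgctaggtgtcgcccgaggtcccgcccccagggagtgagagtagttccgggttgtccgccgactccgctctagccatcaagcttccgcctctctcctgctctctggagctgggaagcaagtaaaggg
Mrpl12 (chr11:120484387-120484666, plus strand): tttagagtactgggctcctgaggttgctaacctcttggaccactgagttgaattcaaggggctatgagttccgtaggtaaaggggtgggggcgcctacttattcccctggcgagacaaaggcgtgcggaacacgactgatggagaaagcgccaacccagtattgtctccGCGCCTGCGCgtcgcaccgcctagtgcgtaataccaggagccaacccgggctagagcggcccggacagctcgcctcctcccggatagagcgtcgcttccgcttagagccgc
Mrps10 (chr17:47368947-47369226, plus strand): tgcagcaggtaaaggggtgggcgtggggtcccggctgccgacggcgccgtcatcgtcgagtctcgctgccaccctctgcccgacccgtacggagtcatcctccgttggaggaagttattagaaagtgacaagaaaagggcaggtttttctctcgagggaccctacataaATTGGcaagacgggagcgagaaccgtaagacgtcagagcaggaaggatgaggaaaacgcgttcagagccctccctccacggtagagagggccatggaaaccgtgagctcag
Mrpl2 (chr17:46645971-46646250, plus strand): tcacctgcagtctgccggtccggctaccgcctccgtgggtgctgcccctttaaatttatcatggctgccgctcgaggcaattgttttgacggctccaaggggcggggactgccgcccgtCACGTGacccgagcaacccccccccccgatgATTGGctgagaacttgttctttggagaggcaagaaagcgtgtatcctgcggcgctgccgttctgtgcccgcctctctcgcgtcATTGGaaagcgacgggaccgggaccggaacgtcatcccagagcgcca
Mrps11 (chr7:78782881-78783160, plus strand): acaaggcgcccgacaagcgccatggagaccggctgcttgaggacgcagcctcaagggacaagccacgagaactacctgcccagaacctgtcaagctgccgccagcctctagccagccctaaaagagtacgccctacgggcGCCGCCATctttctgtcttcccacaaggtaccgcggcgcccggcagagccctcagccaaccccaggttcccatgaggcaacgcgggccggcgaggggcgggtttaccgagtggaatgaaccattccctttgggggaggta

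The capitals mark a match to the nuclear respiratory factor motif NRF1 in Mrpl12 (81 bases before the start, on the other strand), to CCAAT on the other strand in Mrps10 and Mrpl2, to an E-box (CACGTG) in Mrpl2, and to the YY1 motif (ATGGCGGC, on the other strand) in Mrps11. None of the motifs searched was found in the printed stretch of Mrps33. Mrps11 (uS11m) and Mrpl46 (mL46) lie head to head on opposite strands. In GENCODE M21 their annotated starts are at 78783119 and 78783531, so that the genes overlap by 413 bases there. In the loci given with the deposited FPKM values, Mrpl46 ends at 78783089 and Mrps11 begins at 78783131, without overlap. Mrps11 had 18.9 FPKM in vKO cortex and 14.1 FPKM in WT cortex, and Mrpl46 had 18.7 FPKM in vKO cortex and 13.5 FPKM in WT cortex, with log2 ratios of 0.39 and 0.44 that did not pass the test.

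Motifs were searched on both strands of the full windows, from 250 bases before to 50 after the start. The ETS motif CCGGAAG was in 24 of 68 members' promoters (35.3%), against 17.4% of 9952 other tested genes. The YY1 motif ATGGCGGC was in 12 (17.6%), against 4.92%, and the NRF1 motif, GCGCA followed by any base and GCGC, in 13 (19.1%), against 10.3%. CCAAT was in 27 (39.7%), against 38.7%. The E-box CACGTG was in 5 (7.35%), against 10.2%, and the core ACGTG of hypoxia-response elements, which the E-box contains, in 15 (22.1%), against 25.9%. Of the members called in cortex and of the other members, ETS was in 7 of 18 (38.9%) and 17 of 50 (34%), NRF1 in 4 of 18 (22.2%) and 9 of 50 (18%), and YY1 in 2 of 18 (11.1%) and 10 of 50 (20%), differences that were not tested. A match describes letters in a window and not binding of a factor.

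Other genes of mitochondrial translation were counted for comparison. With 8.15% of all genes tested in cortex called higher and 11.3% called lower, lists this small can hold few calls or none. Of 6 ribosomal proteins with other symbols, 2 rose in vKO cortex: Chchd1 (mS37), with 91.4 FPKM in vKO and 59.2 FPKM in WT (log2 ratio 0.62, q = 0.00353 in the authors' deposited table), and Aurkaip1 (mS38), with 36.1 FPKM in vKO and 26.4 FPKM in WT (log2 ratio 0.44, q = 0.0296 in the authors' deposited table). The median ratio of the 6 was 0.31, beside 0.36 for the members. Of 14 translation factors and related genes, 0 were called in either direction, and their median was -0.04, with the elongation factor Tufm at 41.4 FPKM in vKO and 36.04 FPKM in WT. Of 18 mitochondrial aminoacyl-tRNA synthetases, which load transfer RNAs with amino acids, 0 were called and the median was 0.03. Gars, at 81.3 FPKM in vKO and 71.5 FPKM in WT, and Kars, at 55.6 FPKM in vKO and 44.0 FPKM in WT, stood far above the rest. Their symbols lack the final 2 of the other listed synthetases, and their level was not taken as one of mitochondrial translation alone. Iars2, next in order, had 13.0 FPKM in vKO and 12.8 FPKM in WT. With the length trend removed, the medians were 0.113 for the members, 0.177 for the 6 other ribosomal proteins, -0.011 for the factors and 0 for the synthetases, and no difference between the lists was tested.

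Of 26 genes for ribosome assembly and RNA modification, 2 rose in vKO cortex and 0 fell, with a median of 0.07. The share that rose was close to the 8.15% over all tested genes. Gtpbp10, a GTPase that acts in assembly of the large subunit, had 7.30 FPKM in vKO cortex and 4.57 FPKM in WT cortex (log2 ratio 0.58, q = 0.00306 in the authors' deposited table). Rbfa, which acts in maturation of the small subunit, had 22.2 FPKM in vKO cortex and 15.2 FPKM in WT cortex (log2 ratio 0.52, q = 0.0113 in the authors' deposited table). Of 5 genes of mitochondrial transcription, 0 rose and 1 fell. That gene was Tfb2m, a transcription initiation factor, with 5.51 FPKM in vKO cortex and 10.6 FPKM in WT cortex (log2 ratio -0.83, q = 0.000806 in the authors' deposited table). In subcortex, 0 genes of any of these lists were called, where 0.451% of all tested genes were called higher and 0.262% lower. The medians of the lists there lay between -0.10 and 0.06. The genes of the mitochondrial genome itself were not analysed here.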

How the data were processed

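RNA was sequenced in 12 libraries (4 groups of 3). The submitters' processing notes name HISAT2 2.0.1, Cufflinks 2.2.1, Cuffdiff and mm10. The deposited tables, 1 per tissue, hold FPKM values that the authors pooled to 1 per gene and group, with the deposited p-values and q-values and a test statistic, a score. The q-values match a Benjamini-Hochberg adjustment over all genes tested (largest difference 5.2e-07). No model was fitted: calls are the authors' (q under 0.05). Ratios are log2 of vKO over WT after adding 1 FPKM. Length trends were removed by subtracting the median of 20 bins of equal size by the longest protein-coding transcript (GENCODE M21), a step tested on simulated data. Overlaps and copies came from that annotation and BLAST 2.17.0, with at least 95% identity over 80% of a transcript, in Python 3.11.15 with pandas 2.3.3. Named are the genes called in either tissue, the 4 highest and 4 lowest by ratio and by level in each tissue, and genes with a role outside the ribosome or a structural note, plus others chosen after their values were seen (Mrps7, Mrps11, Mrpl46). Members and lists were chosen with earlier results of these data known. Nothing states whether replicates were separate animals, so p-values may measure technical spread. Alternatives were another pseudocount, length and GC content, stricter calls, subunits by structure and leaving out ambiguous genes. Depth per library is unknown. The remaining cortex markers are not reported here.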

Additional observations from a re-analysis of the deposited data

How the results depend on the processing

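The cortex median of 0.363 was 0.113 after removing the length trend and 0.097 with GC content as well. The 22 calls in cortex became 5 at q under 0.01 and 6 with a 1.5-fold minimum, and the 1 lower call in subcortex became 0 at q under 0.01. The small-against-large difference in cortex (0.018) was 0.01 with a pseudocount of 0.1 FPKM or none, and changed sign to -0.005 with the length trend removed, -0.003 with GC content as well and -0.034 without members that overlap another gene or have a copy, an alternative chosen after seeing the data; the cause was not tested. In subcortex the median (-0.064) was -0.042 with length and GC content, and the small-against-large difference (-0.044) was -0.025 with length and GC content and -0.066 by structure. The other 43 summary values kept their direction and lay within the set limits, among them 15 calls in cortex without members that overlap another gene or have a copy. Values of single genes moved beyond the set limit in 52 cases. No called value changed sign, but these values were called on the same data. Mrpl12 (-0.016), Mrpl40 (-0.011) and Mrpl54 (-0.036), not called in subcortex, changed sign there with length and GC content. No paired analysis was possible because the files hold no value per library, and leaving out a replicate was not run for the same reason. Depth is unknown, so its limits cannot be given.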
